A study of Mus musculus with 721 samples.

Results

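Epiblast cells of the mouse embryo were compared between the late blastocyst at E4.5 and the early post-implantation egg cylinder at E5.5. Cells were chosen by marker levels on the log2(CPM + 1) scale, where CPM is the count of a gene per 1000000 counts of the library. A cell of E4.5 was taken when its mean for Dab2, Lama1, Lamb1, Lamc1, Cubn and Amn, genes of the primitive endoderm, was not above its mean for Sox2, Fgf4, Dnmt3b, Dnmt3l, Slc7a3 and Dppa4. A cell of E5.5 not titled as visceral endoderm was taken when its mean for Apoa1, Ttr, Cubn, Dab2, Amn and Apoc2 was not above its mean for Pou5f1, Tdgf1 and Dnmt3b. This gave 285 of the 721 cells of the series, namely 26 of 105 cells at E4.5 and 259 of 262 at E5.5. The difference of the means was at least 2.10 in the chosen E4.5 cells and at most -0.80 in the others, and at least 3.49 against at most -4.42 at E5.5.

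All embryos were wild type and of strain C57Bl/6Babr, and polyA RNA of each cell was made into cDNA with the Smart-seq2 arm of G&T-seq and sequenced without molecular identifiers. The E4.5 embryos had been freed of trophectoderm by immunosurgery, whereas the E5.5 epiblast was pulled away from visceral endoderm and extraembryonic ectoderm by hand before the anterior visceral endoderm had moved. The 5 E4.5 embryos gave 6, 4, 4, 7 and 5 cells, with embryos 1 and 2 on plate P1 and embryos 3 to 5 on plate P2. The 9 E5.5 embryos were titled with plates P1, P2.P3, P7.P4.P5 and P11.P6.P10. Whether the plate names P1 and P2, which occur at both stages, stand for the same plates is not given in the labels. Numbers given to cells were used at both stages 15 times for P1 and 17 times between P2 and P2.P3. Stage, plate and dissection therefore cannot be told apart. E5.5 embryo 5 gave only 2 cells and was left out of the sums over each embryo's cells, which left 8 embryos with 17 to 45 cells. The sums held 1666375 to 5981234 counts at E4.5 and 9893864 to 49484352 at E5.5, and the E4.5 values are therefore the less precise. Of the chosen wells, 7 at E4.5 and 66 at E5.5 were labelled as holding a pair of cells.

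In the E4.5 blastocyst the epiblast is in the naive state, held by a network of transcription factors that includes Nanog, Esrrb, Klf2, Klf4, Klf5 and Tfcp2l1. After implantation the cells form a polarised epithelium around a cavity, leave the naive network and pass through a formative state marked by Pou3f1 (Oct6), Otx2 and Fgf5, while Nodal signalling from the epiblast begins to pattern the embryo. Pou5f1 (Oct4) is shared by both states.

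Start site sequences are given here for a gene that fell, Esrrb, a second naive factor, Nanog, a gene without a count at E4.5, Psmb8, and the ligand Nodal. Each runs 5′ to 3′ from 250 bases before to 50 bases after a RefSeq start (GRCm38.p6), all of them on the plus strand, and gene positions in the text are those of GENCODE M21 on GRCm38. Esrrb and Nanog have a second start, not shown. Capitals mark a match to a motif searched on both strands. Esrrb (chr12:86360867-86361166) and Psmb8 (chr17:34197945-34198244) each hold the STAT motif TTCNNNGAA, Nanog (chr6:122707315-122707614) holds the OTX2 motif TAATCC on the other strand, and Nodal (chr10:61417722-61418021) holds none of the 7 motifs.
Esrrb: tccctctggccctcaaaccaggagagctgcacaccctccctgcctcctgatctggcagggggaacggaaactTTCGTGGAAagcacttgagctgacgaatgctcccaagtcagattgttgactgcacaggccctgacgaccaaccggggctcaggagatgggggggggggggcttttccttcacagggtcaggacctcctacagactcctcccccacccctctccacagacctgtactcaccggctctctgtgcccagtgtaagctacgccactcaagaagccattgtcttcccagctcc
Nanog: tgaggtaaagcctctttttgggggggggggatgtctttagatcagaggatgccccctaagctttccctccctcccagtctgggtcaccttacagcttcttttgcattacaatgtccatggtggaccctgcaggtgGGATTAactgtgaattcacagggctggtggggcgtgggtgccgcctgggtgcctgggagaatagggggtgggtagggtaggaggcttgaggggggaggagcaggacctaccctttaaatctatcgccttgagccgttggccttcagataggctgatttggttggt
Psmb8: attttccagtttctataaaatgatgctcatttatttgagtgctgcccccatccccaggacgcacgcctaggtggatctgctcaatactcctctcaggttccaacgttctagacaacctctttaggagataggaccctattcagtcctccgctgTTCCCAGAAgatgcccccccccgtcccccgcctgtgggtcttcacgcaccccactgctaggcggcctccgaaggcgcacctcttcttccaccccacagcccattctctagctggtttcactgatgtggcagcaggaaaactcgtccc
Nodal: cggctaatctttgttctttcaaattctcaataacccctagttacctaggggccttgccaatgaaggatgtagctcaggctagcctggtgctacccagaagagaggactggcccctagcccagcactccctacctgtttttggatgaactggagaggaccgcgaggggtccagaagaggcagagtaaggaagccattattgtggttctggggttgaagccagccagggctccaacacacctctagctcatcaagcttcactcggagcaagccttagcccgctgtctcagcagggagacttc

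Over all genes, 12170 were tested with edgeR's quasi-likelihood test on the embryo sums, and a gene was called when its Benjamini-Hochberg adjusted p was at most 0.05 and its log2 fold change exceeded 1. At E5.5, 1336 genes (11%) were higher and 753 (6.19%) were lower. All E5.5 embryos lay above all E4.5 embryos for 991 genes (8.14%) and below them for 446 (3.66%). Among the genes called higher, 511 had no count in any E4.5 sum, where depth was smallest. They passed the filter on low counts through their E5.5 sums alone, so their calls are not independent of that filter. Among the genes called lower, 6 had no count at E5.5. Without the filter, 1295 genes were higher and 1107 lower. When every sum was thinned to the smallest total, 715 genes were higher and 729 lower, so that the share of higher calls went from 64.0% to 49.5%. That share was 42.7% (1004 higher and 1346 lower) with limma on the embryos' mean log2(CPM + 1), 53.9% without a filter on low counts, 47.5% with the first 5 cells of each E5.5 embryo and 16.3% to 46.6% with the E5.5 embryos of 1 plate. The excess of rises over drops thus depended on the setting. The genes described below were read against these shares, and the median log2 fold change of all genes was 0.15. In sums of cells, fewer cells with a gene and less of it in each cell cannot be told apart.

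**Figure D1:**
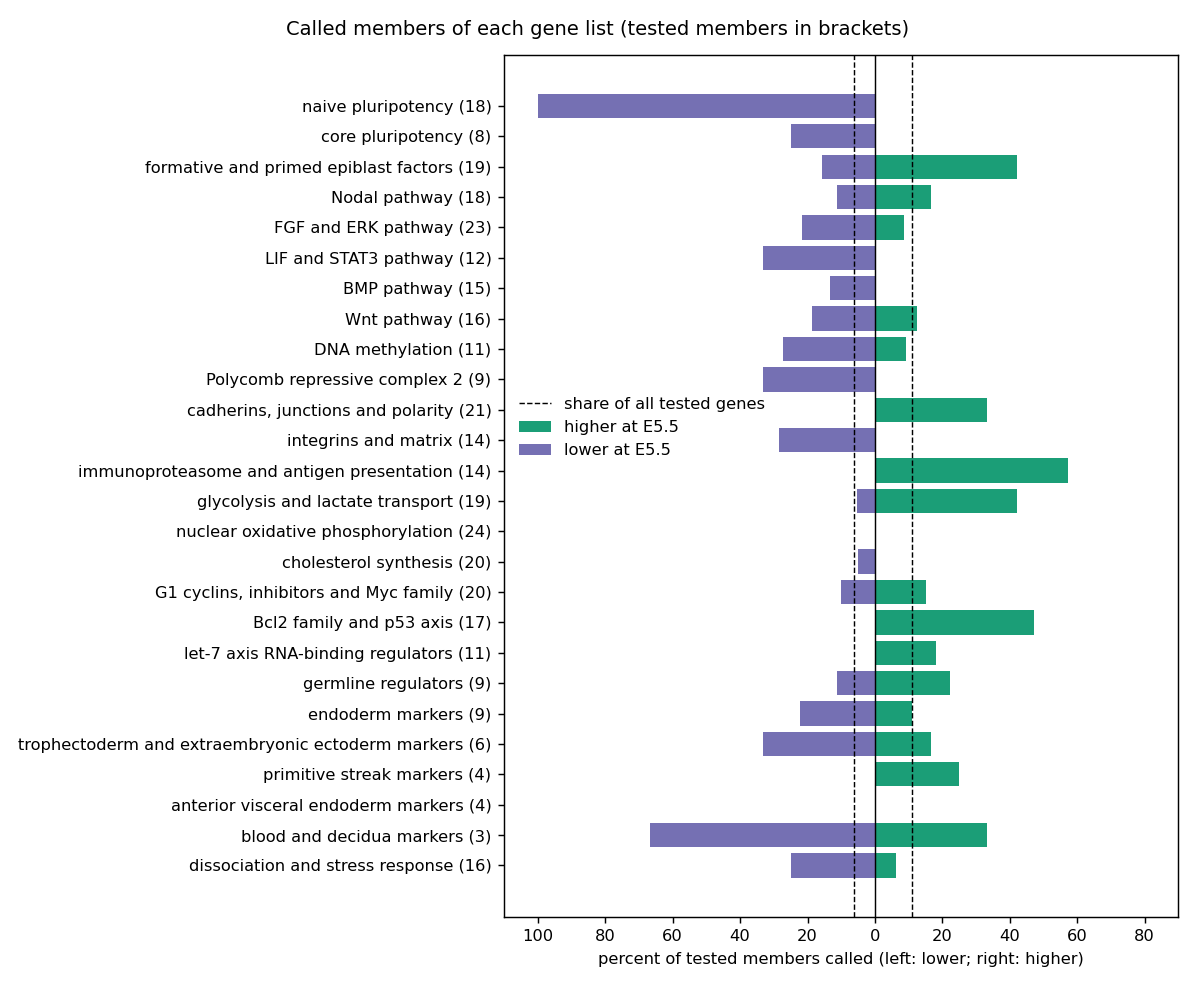
Share of the tested members of each gene list called higher at E5.5 (to the right, green) or lower (to the left, violet), in percent, with the number of tested members in brackets and the share of all tested genes as dashed lines. All 18 tested naive genes lie on the lower side, and the immunoproteasome list has the longest bar on the higher side, with 8 of 14.

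Some lists had no call in 1 or both directions with edgeR, and DESeq2 gave none in those directions either. At an unadjusted p under 0.05, 3 oxidative phosphorylation genes were higher and 7 lower, 3 let-7 axis genes were lower, 2 matrix genes were higher, and 1 junction gene was lower. The same held for 1 anterior visceral endoderm gene on the higher side and 1 streak gene on the lower side. The naive, general pluripotency, LIF, BMP, Polycomb, immunoproteasome, cholesterol and Bcl2 lists had 0 such genes in the direction without calls.

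The tested genes of the naive list all fell, and this list, like the others, was chosen with earlier results of these data known. Of 20 listed naive pluripotency genes, 18 were tested and all 18 were lower at E5.5, with a median log2 fold change of -5.06. The embryos of the 2 stages did not overlap for 17 of the 18, the exception being Zfp42 (Rex1). The listed genes together made up 12444 to 17319 CPM in the E4.5 embryos and 3180 to 5140 CPM in the E5.5 embryos, with most of it from Dppa5a. Spic and Prdm14 had too few counts to be tested, with 0.442 to 20.9 CPM of Spic at E4.5 and no count at E5.5, and a single E4.5 embryo with Prdm14 above 0.

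Esrrb, an orphan nuclear receptor (chr12:86361117-86521628), stood at 128, 74.7, 113, 56.5 and 155 CPM in E4.5 embryos 1 to 5. At E5.5 it ranged from 0 to 6.37 CPM, with a median of 0.0115. The stages were far apart, and the E5.5 mean was 104-fold lower (log2 fold change -6.70, SE 1.20, adjusted p = 0.000722). The size of the drop turned on E5.5 embryo 1, at 6.37 CPM, without which the log2 fold change was -8.41. That embryo also lay above the others of its stage for the trophectoderm markers Cdx2 (4.42 CPM), Hand1 (1.24 CPM) and Tead4 (2.89 CPM). A chosen cell of it had a mean of 5.36 for the E5.5 epiblast genes and 0 for the endoderm genes. The E5.5 rule holds no trophoblast genes, and the part of such cells in the Esrrb level was not tested. Klf5, a Krüppel-like factor (chr14:99298691-99315036), stood at 83.3, 97.0, 191, 82.5 and 148 CPM at E4.5 and at 0.312 to 8.11 CPM at E5.5, with a median of 2.87. It was 35.0-fold lower without overlap (log2 fold change -5.13, SE 0.54, adjusted p = 4.36e-06). The other Krüppel-like factors of the network fell unequally. Klf2 dropped from a mean of 83.8 to 2.90 CPM (log2 fold change -4.86, SE 0.49) and Klf4 from 34.0 to 4.62 CPM (log2 fold change -2.88, SE 0.56).

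Nanog, the homeodomain factor of the naive state, kept a measurable level. It stood at 103, 111, 134, 91.5 and 30.7 CPM at E4.5 and at 4.21 to 19.4 CPM at E5.5 (log2 fold change -3.14, SE 0.38, adjusted p = 1.83e-05). The lowest E4.5 embryo, number 5, was still above every E5.5 embryo. Tfcp2l1, a grainyhead-family factor, fell from a mean of 170 to 2.35 CPM (log2 fold change -6.13) and Tbx3, a T-box factor, from 23.7 to 0.403 CPM (log2 fold change -5.80). Fbxo15 (61.1 to 0.923 CPM), Nr5a2 (14.3 to 0.443 CPM) and Gbx2 (47.9 to 6.81 CPM) were lower too, although without E4.5 embryo 3 the adjusted p of Nr5a2 was 0.0540. Without E5.5 embryo 8 the log2 fold change of Fbxo15 went from -5.96 to -7.24, and without E5.5 embryo 3 that of Nr5a2 from -5.04 to -6.67.

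Enzymes and germline-associated genes of the naive list moved with the factors. Tdh, the threonine dehydrogenase, fell from 530 ± 92.7 CPM (SD, n = 5) to 24.8 ± 11.05 (SD, n = 8), with a log2 fold change of -4.42 (SE 0.29, adjusted p = 3.51e-08). Morc1, a silencer of transposons in the germline, went from 483 to 14.1 CPM (log2 fold change -5.09). Tcl1, a cofactor of the kinase Akt, went from 104 to 0.596 CPM (log2 fold change -7.39, and -8.08 without E5.5 embryo 2). The smallest drops were those of Zfp42 (log2 fold change -1.57), Dppa5a (-1.80) and Dppa3 (Stella, -2.20). Dppa5a therefore still stood at 3558 CPM on average at E5.5.

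**Figure D2:**
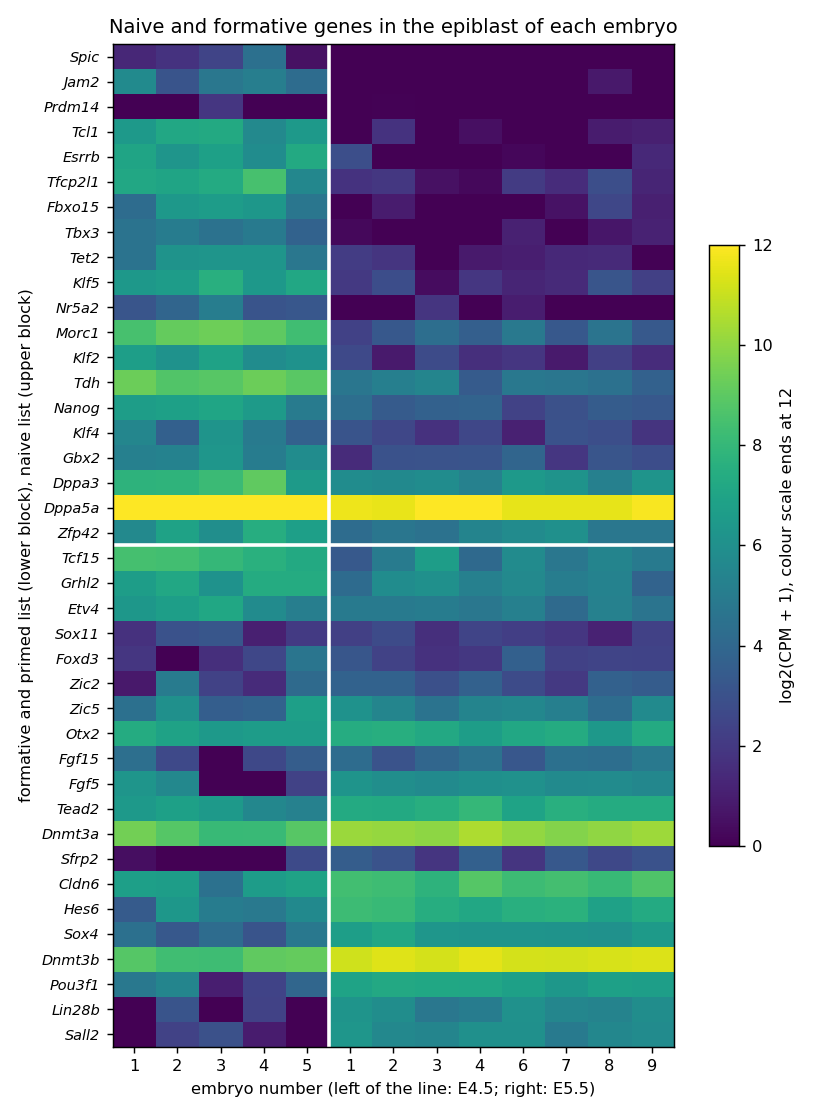
Level of each gene of the naive list (upper block) and the formative and primed list (lower block) in the 5 E4.5 and 8 E5.5 embryos, as colour on the log2(CPM + 1) scale up to 12. The upper block falls at E5.5, least for Dppa5a, Dppa3 and Zfp42, and levels above 12 are drawn as 12. The lower block holds genes that rise, such as Sall2 and Lin28b, beside Tcf15, Grhl2 and Etv4, which fall.

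The list of general pluripotency genes had calls on the lower side only. Of its 8 tested members, L1td1, an RNA-binding protein, and Gdf3, a ligand of the Nodal family, were lower (log2 fold changes -1.06 and -1.30), none was higher, and the median was -0.32. Utf1 (log2 fold change 0.02, SE 0.15, adjusted p = 0.940), Lin28a (0.09, SE 0.20) and Sall4 (-0.36, SE 0.24) did not pass. Pou5f1, Sox2 and Dppa4 had been used to choose cells and are only described. Pou5f1 stood at a mean of 1612 CPM at E4.5 and 1638 at E5.5, Dppa4 at 222 and 160, and Sox2 at 140 and 34.0. The latter's row overlaps that of the noncoding Sox2ot on the same strand.

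Genes of the formative and primed list moved in both directions. Of 19 tested, 8 were higher, 3 were lower and 8 were not called, with a median log2 fold change of 1.24. Pou3f1, a POU-domain factor of the post-implantation epiblast (chr4:124656807-124660655), stood at 27.3, 42.9, 1.02, 4.32 and 14.8 CPM in E4.5 embryos 1 to 5. At E5.5 it lay between 79.4 and 150 CPM, with a median of 118. Every E5.5 embryo was above every E4.5 embryo, and the rise was 6.85-fold (log2 fold change 2.78, SE 0.55, adjusted p = 0.00176), or 3.37 on the log2 scale without E4.5 embryo 2. Sall2, a zinc finger factor, and Lin28b, a repressor of let-7 maturation, had the steepest rises of the list, from 2.37 to 53.1 CPM (log2 fold change 4.59, SE 0.77) and from 2.36 to 49.8 CPM (4.51, SE 0.87). Their log2 fold changes were 5.78 without E4.5 embryo 3 and 5.34 without E4.5 embryo 2.

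Further genes of this list rose less steeply. Sox4 went from 16.4 to 87.8 CPM (log2 fold change 2.41, adjusted p = 0.000102), Hes6, a member of the Hes family, from 40.4 to 194 CPM, and Cldn6, a tight junction claudin, from 89.7 to 329 CPM. Tead2, a partner of Yap, went from 73.7 to 175 CPM and the de novo DNA methyltransferase Dnmt3a from 438 to 1114 CPM (log2 fold change 1.35, SE 0.20). The 3 genes that fell were Tcf15, a basic helix-loop-helix factor of epiblast priming, the epithelial factor Grhl2 and the Fgf-responsive Etv4. Tcf15 stood at 351, 332, 256, 198 and 154 CPM at E4.5 and at 9.08 to 101 CPM at E5.5 (log2 fold change -2.75, SE 0.42, adjusted p = 0.000174). Otx2 was already present at 89.7 to 164 CPM at E4.5 and stood at 82.5 to 185 CPM at E5.5 (log2 fold change 0.35, SE 0.22, adjusted p = 0.281). The Zic genes did not pass either, with log2 fold changes of -0.21 for Zic2 (SE 0.73) and -0.09 for Zic5 (SE 0.50).

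Fgf5, a standard marker of the post-implantation epiblast, was not called with edgeR over all embryos, and its E4.5 embryos were split. Limma on the embryos' mean log2(CPM + 1) did call Fgf5 higher. It stood at 75.2 and 47.0 CPM in embryos 1 and 2 of plate P1, at 0 in embryos 3 and 4 and at 4.20 CPM in embryo 5, whereas the E5.5 embryos lay between 46.8 and 73.4 CPM. The log2 fold change was 1.24 (SE 0.88, adjusted p = 0.360) over all E4.5 embryos, -0.05 against those of plate P1 and 5.35 (adjusted p = 0.000452) against those of plate P2. Pou3f1 was also higher in the E4.5 embryos of plate P1 than in those of P2, and its rise held against either plate, with log2 fold changes of 1.79 and 4.14. The 4 E4.5 cells with a count of Fgf5 after thinning were 2 cells of embryo 1 and 1 cell each of embryos 2 and 5. With 5 embryos on 2 plates, an embryo's own level and its plate cannot be told apart.

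**Figure D3:**
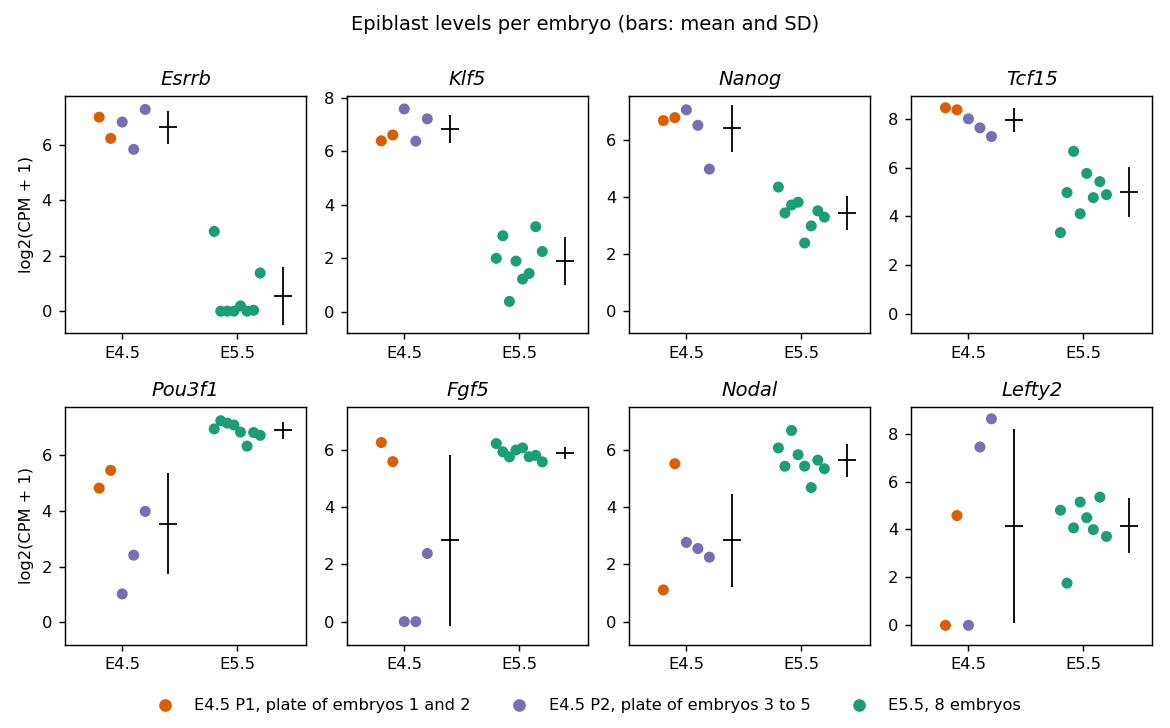
Level of 8 genes in the epiblast of each embryo, on the log2(CPM + 1) scale, with the E4.5 embryos coloured by plate and a bar for the mean and SD of each stage. Esrrb, Klf5, Nanog and Tcf15 sit lower in all 8 E5.5 embryos, Pou3f1 sits higher, and Fgf5, Nodal and Lefty2 have E4.5 embryos within or above the E5.5 range.

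Single cells showed which levels came from how many cells. Each cell was thinned to 150000 counts, which kept all 26 E4.5 cells and 258 E5.5 cells. Intervals are exact 95% binomial limits over the pooled cells of a stage, and they leave out the spread between embryos. Klf5 had a count in 26 of 26 E4.5 cells (86.8 to 100%) and in 12.4% of E5.5 cells (8.64 to 17.1%). Its share lay between 4.44% and 29.4% in the 8 E5.5 embryos. Esrrb went from 88.5% (69.8 to 97.6%) to 1.16% (0.240 to 3.36%), and Tfcp2l1 from 92.3% to 8.91%. Nanog remained in 28.7% of E5.5 cells (23.2 to 34.6%), between 17.4% and 44.0% in the 8 embryos. Without thinning the E5.5 shares of Klf5, Esrrb, Tfcp2l1 and Nanog were 17.1%, 1.94%, 11.6% and 35.3%.

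On the formative side, Pou3f1 had a count in 8 of 26 E4.5 cells (30.8%, 14.3 to 51.8%, and 50.0% without thinning) and in 94.6% of E5.5 cells (91.1 to 97.0%). Fgf5 went from 15.4% (4.36 to 34.9%) to 74.8% (69.0 to 80.0%), and by embryo from 0 to 33.3% at E4.5 and from 60.9% to 88.2% at E5.5. Otx2 was found in 96.2% and 92.6% of cells. All 8 E4.5 cells with Pou3f1 also had Esrrb, Klf5 and Tfcp2l1, genes found in 88.5% or more of all E4.5 cells, and 4 of the 8 were from single wells. At E5.5, 3 of 258 cells had Esrrb, 2 of them with Pou3f1, and 74 had Nanog, 72 of them (27.9% of all cells) with Pou3f1. No test was run on these shares, since cells of an embryo are not replicates.

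**Figure D4:**
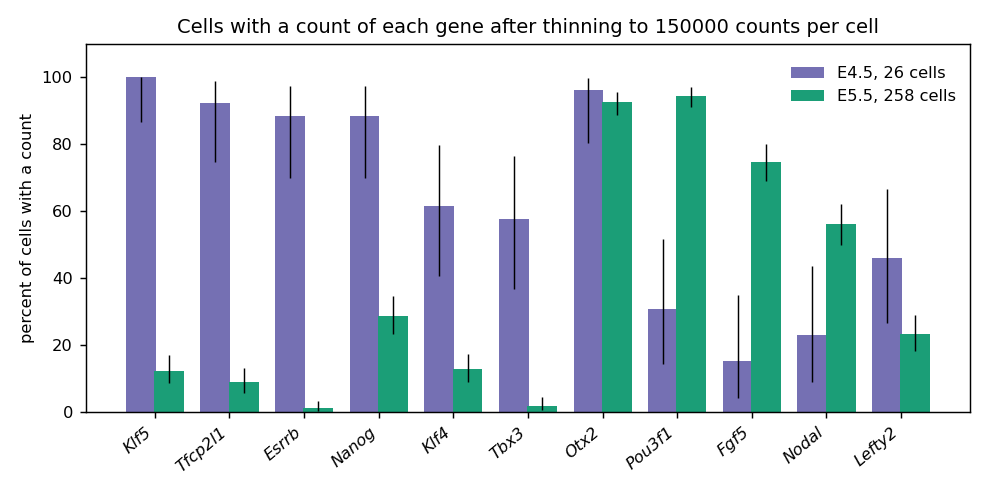
Percent of epiblast cells with at least 1 count of each gene after thinning to 150000 counts per cell, at E4.5 (26 cells) and E5.5 (258 cells). Exact 95% binomial intervals pool the cells of a stage and leave out the spread between embryos. Klf5, Tfcp2l1, Esrrb, Klf4 and Tbx3 drop below 13% of cells at E5.5, Otx2 is above 92% at both stages, and Pou3f1 goes from 30.8% to 94.6%.

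Nodal is a TGF-beta family ligand that signals through activin receptors with Tdgf1 (Cripto) as coreceptor and Smad2 and Foxh1 as effectors, and Lefty1 and Lefty2 are its inhibitors and targets. Of 18 tested genes of the pathway, 3 were higher and 2 lower, and the median log2 fold change was 0.57. Nodal itself (chr10:61417972-61425338) stood at 1.15, 44.7, 5.80, 4.86 and 3.76 CPM in E4.5 embryos 1 to 5, and at 24.7 to 101 CPM at E5.5 with a median of 45.4. E4.5 embryo 2 lay within the E5.5 range and the other 4 below it. After thinning, 1 of 4 cells of that embryo had a count of Nodal. The share of all cells with one was 23.1% at E4.5 and 56.2% at E5.5. The rise was 4.56-fold (log2 fold change 2.19, SE 0.67, adjusted p = 0.0256). Leaving out E4.5 embryo 3, 4 or 5 or E5.5 embryo 3 ended the call, with an adjusted p of at most 0.0596, and leaving out E4.5 embryo 2 raised the log2 fold change to 3.74. Against the E4.5 embryos of plate P1 alone the log2 fold change was 1.23 (adjusted p = 0.304), and with single wells only it was 1.90 (adjusted p = 0.0748).

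Gdf1, a coligand of Nodal, was at 0, 8.82, 0, 0 and 13.5 CPM at E4.5 and between 37.1 and 85.6 CPM at E5.5 (log2 fold change 3.79, SE 0.90, adjusted p = 0.00583, and 5.20 on the log2 scale without E4.5 embryo 5). Its row overlaps Lass1 (Cers1), which shares its transcript and had almost the same counts, so the rise cannot be given to either gene alone. Gdf3 fell from 323 to 131 CPM (log2 fold change -1.30, SE 0.17, adjusted p = 5.02e-05) and the proprotein convertase Pcsk6 (Pace4) from 20.9 to 5.86 CPM (adjusted p = 0.0380, lost in 9 of the 13 fits that left out an embryo). Drap1, a corepressor that limits Foxh1, was at 15.0 and 34.6 CPM (adjusted p = 0.0308, lost in 6 of those 13 fits). Tdgf1 had been used to choose cells and is only described, at 1273 and 546 CPM.

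The receptors and effectors did not pass with edgeR over all embryos. Adjusted p was 0.0669 for Acvr2b (29.4 to 72.6 CPM), 0.286 for Acvr1b, 0.423 for Smad3, 0.220 for Foxh1, 0.585 for Smad2 and 0.329 for Smad4. Among the fits without 1 embryo, Acvr2b passed only when E4.5 embryo 5 was left out. It was also called higher with DESeq2, limma, single wells only, the replicate block and the E4.5 embryos of plate P1 alone. Acvr1b was called with single wells only, against plate P1 and without E4.5 embryo 5, and Smad3 against plate P1. The inhibitors varied most between embryos. Lefty2 stood at 0, 22.9, 0, 173 and 392 CPM in the E4.5 embryos and at 2.39 to 39.8 CPM at E5.5 (log2 fold change -2.49, SE 0.98, adjusted p = 0.0810). Lefty1 stood at 0, 42.3, 0, 9.36 and 0 CPM and then at 7.55 to 240 CPM (log2 fold change 2.72, SE 1.16, adjusted p = 0.107). Lefty2 passed when E4.5 embryo 1 or 3 was left out and against the E4.5 embryos of plate P2. Lefty1 passed when E4.5 embryo 2 was left out, with limma and against plate P2. At E4.5, 6 of 7 cells of embryo 4 and 5 of 5 cells of embryo 5 had a count of Lefty2 after thinning, against 1 of 14 cells of the other 3 embryos.

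FGF signalling through Erk drives exit from the naive state. Of 23 tested genes of that pathway, 2 were higher and 5 lower, with a median log2 fold change of -0.23. The 5 lower genes were Etv4 and Egr1, targets of Erk, and Spry2, Spred1 and Spred2, feedback inhibitors of it. Spry2 stood at 72.6 to 265 CPM at E4.5 and at 13.3 to 80.6 CPM at E5.5, with overlap in E5.5 embryo 9 alone (log2 fold change -2.46, SE 0.37, adjusted p = 0.000150). Egr1, an immediate-early gene, varied from 7.74 to 243 CPM at E4.5 and from 1.19 to 12.1 CPM at E5.5 (log2 fold change -3.96, SE 0.65), with E4.5 embryo 4 inside the E5.5 range. Fgf8 had no count in the E4.5 sums and 2.78 to 16.4 CPM in every E5.5 embryo, at least 51.4-fold higher against a limit of 3 counts over the E4.5 sums. Mapk3 (Erk1) rose from 23.4 to 71.9 CPM. Fgf4 had been used to choose cells and stood at 145 and 75.1 CPM, and its receptor Fgfr1 did not pass (59.5 and 63.7 CPM).

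Egr1 is also on a list of genes that respond to dissociation. In that list of 16 tested genes, Ier2, Egr1, Dusp1 and Hspa1b were lower at E5.5 and Btg2 was higher, with a median of -0.42. Hspa1b lost its call in 9 of 13 fits that left out an embryo, and Btg2 kept its call in only 2 of those 13 and lost it with RLE factors. Ier2 was at 493 to 988 CPM at E4.5 and 171 to 270 CPM at E5.5. Fos, of the same class, was not called (19.3 and 8.33 CPM, adjusted p = 0.263). The summed level of the 18 listed genes with a row ranged from 7060 to 9030 CPM at E4.5 and from 7004 to 8355 CPM at E5.5, and Atf3 had no count at E4.5. The part of this in the drop of Egr1, Spry2 and Etv4 was not tested.

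LIF acts through its receptor and Stat3 to hold naive cells in culture. Of 12 tested genes, 4 were lower and none higher, with a median log2 fold change of -1.18. Lifr, the ligand-binding receptor, stood at 149, 71.2, 40.9, 382 and 152 CPM at E4.5 and at 0.0780 to 9.54 CPM at E5.5 (log2 fold change -5.52, SE 0.80, adjusted p = 0.000119, and -4.89 on the log2 scale without E4.5 embryo 4). Il6st (gp130) fell from 38.5 to 6.23 CPM, the kinase Pim3 from 166 to 74.3 CPM and Stat3 itself from 24.8 to 6.59 CPM. Stat3 overlapped between stages (3.60 to 56.8 and 0.901 to 12.1 CPM) and lost its call in 9 of 13 fits that left out an embryo, and Il6st without E4.5 embryo 3 or 4. Without E5.5 embryo 2 the log2 fold change of Il6st went from -2.63 to -3.23. Pim3 fell below the fold limit without E4.5 embryo 1 or 5.

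Of 15 tested genes of the BMP pathway, Bmp4 and Bmp8a were lower and none was higher. Bmp4 stood at 40.3, 135, 35.1, 137 and 14.6 CPM at E4.5 and at 1.11 to 19.7 CPM at E5.5 (log2 fold change -3.52, SE 0.63, adjusted p = 0.000677). Bmp8a had a log2 fold change of -5.54, and of -4.31 without E4.5 embryo 2. Id3, a target of Bmp4, did not pass (307 and 430 CPM, adjusted p = 0.386). In the Wnt pathway 2 of 16 genes were higher and 3 lower. Tcf7, a nuclear effector, and the coreceptor Lrp5 rose (5.51 to 30.0 CPM and 18.6 to 70.1 CPM), whereas the receptor Fzd5, the R-spondin receptor Lgr4 and the effector Lef1 fell, Fzd5 from 39.1 to 6.85 CPM.

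Genes of DNA methylation moved in both directions. Dnmt3b and Dnmt3l, both used to choose cells, stood at 438 and 649 CPM at E4.5 and at 2513 and 111 CPM at E5.5. Of the 11 genes that could be tested, Dnmt3a was higher and Zfp57, Tet1 and Tet2 were lower. Zfp57, a zinc finger protein that protects imprints, stood at 150 to 180 CPM at E4.5 and at 2.42 to 25.2 CPM at E5.5 (log2 fold change -3.88, SE 0.39, adjusted p = 3.08e-06). The dioxygenase Tet1 fell from 411 to 192 CPM and Tet2 from 54.1 to 1.41 CPM, while Tet3 did not pass (5.33 and 10.6 CPM, adjusted p = 0.316). The maintenance pair Dnmt1 and Uhrf1 did not pass either (log2 fold changes 0.21, SE 0.30, and 0.21, SE 0.20). In Polycomb repressive complex 2, Jarid2 fell from 512 to 122 CPM (log2 fold change -2.07, SE 0.19, adjusted p = 1.28e-06), Mtf2 from 526 to 196 CPM and Suz12 from 171 to 66.0 CPM. These were 3 of 9 tested genes and none was higher. The catalytic Ezh2 did not pass (log2 fold change -0.43, SE 0.19, adjusted p = 0.127).

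RNA of some keratin, junction and polarity genes was higher at E5.5. Of 21 tested genes for cadherins, junctions and polarity, 7 were higher and none was lower, with a median log2 fold change of 0.95. Krt8, a keratin, had no count in the E4.5 sums and lay between 15.4 and 74.7 CPM at E5.5, at least 218-fold higher. Its partner Krt18 was at 0 to 36.9 CPM at E4.5 and 105 to 195 CPM at E5.5 (log2 fold change 3.33, SE 0.86, adjusted p = 0.0105, and 4.13 on the log2 scale without E4.5 embryo 1). Cldn7 rose from 23.6 to 117 CPM (log2 fold change 2.30, and 2.89 without E4.5 embryo 4) and the polarity genes Pard3 and Crb3 from 15.2 to 51.0 and from 12.3 to 46.3 CPM. Cdh1 (E-cadherin) had an adjusted p of 0.00289 and no overlap, but its log2 fold change of 0.88 was under the limit. Cdh2 (N-cadherin) was called from 0 to a mean of 4.05 CPM, with 0.395 CPM in the lowest E5.5 embryo.

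Matrix genes moved the other way, with 4 of 14 lower and none higher. Fn1 (fibronectin) stood at 138 to 340 CPM at E4.5 and 8.78 to 73.5 CPM at E5.5 (log2 fold change -2.72, SE 0.36, adjusted p = 4.97e-05), and the nidogens Nid1 and Nid2 fell from 57.0 to 1.71 and from 147 to 51.9 CPM, with -5.03 on the log2 scale for Nid1 and -4.31 without E4.5 embryo 2. Itga5, the fibronectin receptor subunit, was the fourth (34.0 and 12.96 CPM), called in 3 of 13 fits that left out an embryo. Fn1 and the nidogens are also made by primitive endoderm. Of that lineage's 20 listed markers with a row, 9 were tested, Apoe and Sparc were lower and Lrp2 was higher. The median log2 fold change of these 9 was -2.13. At an unadjusted p under 0.05, 5 were lower and 1 was higher, and DESeq2 called 3 lower and 1 higher. Sparc fell below the fold limit without E4.5 embryo 4 (log2 fold change -0.96), and Lrp2 without E4.5 embryo 2 or 4 (0.94 and 0.91) and with thinned sums (0.93). The summed level of the list was 2078 to 3816 CPM at E4.5 and 626 to 1017 CPM at E5.5, of which Apoe made up 1434 to 3296 and 335 to 590 CPM. Gata6 stood at 0 to 7.51 CPM at E4.5, Gata4 at 0 to 0.540 CPM, and Pdgfra had no count. The part of endoderm RNA in the drop of the matrix genes was not tested.

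Genes of the immunoproteasome and antigen presentation rose together. The immunoproteasome carries inducible catalytic subunits that make peptides for MHC class I, the Tap transporter moves these peptides into the endoplasmic reticulum, and H2-K1 and H2-D1 encode class I heavy chains. Of 14 tested genes, 8 were higher and none lower, with a median log2 fold change of 2.55. For these 8 the stages did not overlap. Psmb8 (chr17:34197721-34201454), a catalytic subunit, had the largest bound on its rise among the 10 top genes. It had no count in any of the 5 E4.5 sums, and it stood at 17.03, 79.2, 78.7, 96.1, 94.4, 145, 132 and 68.6 CPM in E5.5 embryos 1 to 4 and 6 to 9. That was at least 514-fold higher, and Psmb8 passed the filter on low counts through its E5.5 sums alone.

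Tap1 and Tap2, beside Psmb8 on chromosome 17, were also without a count at E4.5 and stood at means of 6.41 and 14.1 CPM at E5.5, at least 37.1-fold and 81.7-fold higher. Psmb9, whose row overlaps that of Tap1 on the other strand, had 28.2 CPM in E4.5 embryo 2 and none in the other 4, and was not called (adjusted p = 0.725). Psmb10, the third inducible subunit, was present from the start and rose from 182 to 614 CPM (log2 fold change 1.76, SE 0.24, adjusted p = 5.85e-05). The proteasome activators Psme1 and Psme2 rose from 46.1 to 148 and from 45.6 to 364 CPM. H2-K1 stood at 0 to 13.4 CPM and then 30.8 to 87.3 CPM, and H2-D1 at 0 to 21.9 and 28.7 to 73.6 CPM. Reads of these class I genes can be split between close paralogs. The light chain B2m did not pass (1.91 and 9.33 CPM, adjusted p = 0.163).

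Glycolysis and lactate genes also rose. Of 19 tested, 8 were higher and 1 was lower, with a median log2 fold change of 0.92, whereas none of 24 nuclear genes of oxidative phosphorylation was called in either direction (median 0.03). Ldhb, the lactate dehydrogenase B subunit, stood at 17.3, 6.47, 0, 8.10 and 16.6 CPM at E4.5 and at 238 to 520 CPM at E5.5. It was 35.2-fold higher (log2 fold change 5.14, SE 0.53, adjusted p = 3.97e-06). The A subunit, Ldha, was abundant at both stages and rose from 2179 to 6246 CPM (log2 fold change 1.52, SE 0.18), and Slc16a3 (Mct4), a lactate exporter, from 211 to 676 CPM.

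The phosphofructokinases changed places. Pfkp stood at 197 to 459 CPM at E4.5 and at 16.1 to 46.4 CPM at E5.5 (log2 fold change -3.34, SE 0.27, adjusted p = 2.13e-07), while Pfkl rose from 136 to 446 CPM (log2 fold change 1.72, SE 0.23). Hk1 rose from 0.614 to 8.11 CPM, whereas Hk2, at 252 and 151 CPM, had a log2 fold change of -0.74 and was not called. The glucose transporter Slc2a1 (Glut1), Tpi1 and Eno1 were higher as well. Pkm and Gpi1 had adjusted p of 6.87e-05 and 0.000250 but log2 fold changes of 0.85 and 0.91, under the limit.

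**Figure D5:**
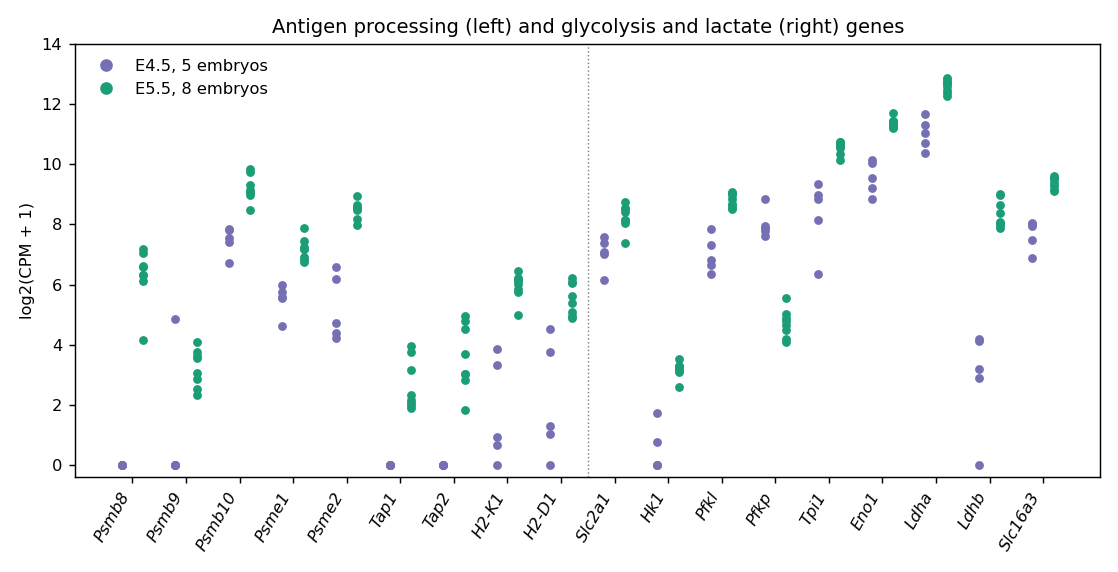
Level in each embryo, on the log2(CPM + 1) scale, of genes of antigen processing (left of the dotted line) and of glycolysis and lactate (right), at E4.5 (violet, 5 embryos) and E5.5 (green, 8 embryos). Psmb8, Tap1 and Tap2 sit at 0 in all E4.5 embryos, Ldhb lies between 0 and 17.3 CPM there and above 237 CPM at E5.5, and Pfkp is the gene right of the line that falls.

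Genes of the Bcl2 family and the p53 axis rose in 8 of 17 cases and fell in none, with a median log2 fold change of 1.32. Pmaip1 (Noxa), a BH3-only protein, stood at 6.14 to 25.0 CPM at E4.5 and at 51.4 to 165 CPM at E5.5 (log2 fold change 2.88, SE 0.35, adjusted p = 1.82e-05). The effectors Bax and Bak1 rose from 405 to 851 and from 2.14 to 15.2 CPM, the BH3-only Bid from 9.22 to 40.9 CPM and the p53 target Trp53inp1 from 16.0 to 86.0 CPM. Bik, also of the BH3-only class, and the antiapoptotic Bcl2 had no count at E4.5 and means of 3.82 and 2.43 CPM at E5.5. Bax fell under the fold limit without E5.5 embryo 3 (log2 fold change 0.98). Trp53 itself did not pass (176 and 193 CPM, adjusted p = 0.697).

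In the cell cycle list 3 of 20 genes were higher and 2 lower. Cyclin E1 (Ccne1) rose from 119 to 314 CPM (log2 fold change 1.39, adjusted p = 0.00219) and Ccnd3 fell from 278 to 110 CPM. The inhibitor Cdkn1a (p21) stood at 0 to 31.8 CPM at E4.5 and at 33.7 to 244 CPM at E5.5, and was called higher (log2 fold change 3.14, and 3.85 without E4.5 embryo 5). Mycl1 and Cdk6 were close to the threshold, with adjusted p of 0.0476 and 0.0434, and Cdk6 lost its call in 10 of 13 fits that left out an embryo. Of 20 tested genes of cholesterol synthesis only Insig1, a brake on the pathway, was called, from 97.5 to 31.1 CPM. Of 11 regulators of the let-7 axis, Lin28b and Hmga1 were higher, and of 9 germline regulators Ddx4 (Vasa) and Mael were higher and Stk31 lower. Hmga1 fell below the fold limit without E4.5 embryo 4 (log2 fold change 0.96). Ddx4 stood at 0.337 CPM at E4.5 and 10.7 CPM at E5.5 (log2 fold change 4.91, and 5.73 without E4.5 embryo 3). Mael lost its call in 8 of 13 fits that left out an embryo, with log2 fold changes of 2.99 to 6.45, and Stk31 without E4.5 embryo 4 or 5 (adjusted p = 0.0754 and 0.0565).

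Trophoblast cells had been left out by the authors on the counts of Elf5, Wnt7b and Tex19.1, and the levels of trophoblast markers are therefore not independent of that filter. Of 11 trophectoderm and extraembryonic ectoderm markers with a row, 6 were tested, with a summed level of 238 to 440 CPM at E4.5 and 51.5 to 176 CPM at E5.5. Tead4 and Tex19.1 were lower, and Krt7 was higher from 0 to a mean of 2.84 CPM. Tead4 had a log2 fold change of -5.38, and of -7.20 without E5.5 embryo 1. Cdx2 and Hand1 had no count at E4.5. Of 11 streak markers the 4 tested included Fgf8, the only one called, and the sum was 15.0 to 67.6 CPM and 15.6 to 57.0 CPM. None of the 4 tested anterior visceral endoderm markers was called, and Cer1 had no count at either stage. Of 11 blood and decidua markers with a row, 3 were tested, Laptm5 and Pecam1 fell and Dcn rose (log2 fold change 4.14, and 5.33 without E4.5 embryo 1), with sums of 40.3 to 176 CPM and 8.19 to 59.5 CPM and no count of Ptprc or of Hbb-b1 at either stage. Pecam1 is also a surface protein of naive cells, and its drop was not called without E4.5 embryo 3 or 4, with a log2 fold change of 0.83 against the E4.5 embryos of plate P1.

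Rises outside the selection genes, among genes without overlap and with at least 20 CPM, were ranked by the fitted log2 fold change, which for a gene without a count depends on the prior count. The first 10 were therefore all genes without a count at E4.5, which passed the filter on low counts through their E5.5 sums alone. They were Psmb8, Cd276, Enpp2, Krt8, Ndn, Cnih2, Pcdh1, Gm4969, 2310021P13Rik and Cxcl12. Cd276 (B7-H3), an immune checkpoint ligand, stood at 54.2 to 97.8 CPM at E5.5, at least 411-fold higher. Enpp2 (autotaxin), which makes lysophosphatidic acid, was at 43.9 to 70.3 CPM, at least 333-fold higher. Bounds of 202-fold, 190-fold and 137-fold were obtained for the imprinted gene Ndn, the protocadherin Pcdh1 and the chemokine Cxcl12. Genes with a few counts at E4.5 came lower in this order, although 5 of them, with 1 to 4 counts over the E4.5 sums, rose by as much as the smallest of these bounds, each against its own level or the limit of 3 counts, whichever was higher. These were, named after their values were seen, Sema6a (0.177 to 97.6 CPM), Tmem98 (0.0360 to 42.9 CPM), Gstm5 (0.0682 to 38.4 CPM), Pgm2 (0.136 to 27.5 CPM) and 2310022B05Rik (0.0802 to 25.9 CPM).

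The 10 largest drops were those of Serpinb9b, Gm15698, Pglyrp1, Adap1, Notum, Gm8127, Jam2, 2410004A20Rik, Gm7325 and Ngfr. Serpinb9b, a serpin of the granzyme inhibitor family, stood at 38.8, 18.2, 88.4, 28.6 and 11.7 CPM at E4.5 and had no count at E5.5, at least 2698-fold lower. Pglyrp1, a peptidoglycan recognition protein, fell from 97.9 to 0.179 CPM (log2 fold change -9.06, SE 0.98), and Notum, a secreted inhibitor of Wnt, from 28.2 to 0.0862 CPM (log2 fold change -8.34, SE 1.28). Near 0 these values turn on single embryos, and without E5.5 embryo 2 they were -9.70 for Pglyrp1 and -11.99 for Notum. Jam2, a junctional adhesion molecule, is also on the naive list, and its log2 fold change went from -7.85 to -11.80 without E5.5 embryo 8. The highest level at E4.5 was that of 2410004A20Rik, with a mean of 860 CPM, against 4.02 CPM at E5.5 (log2 fold change -7.84, and -9.52 without E5.5 embryo 3).

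The motifs searched at start sites were no more than a description. RefSeq start site windows were found for 8314 of the tested genes (10692 windows), for 942 of the 1336 higher genes and 495 of the 753 lower ones. The STAT motif was in 6.66% of all windows, 6.43% of those of higher genes and 4.90% of those of lower genes. The OTX2 motif was in 5.53%, 5.46% and 6.68%, the E-box CACGTG in 10.1%, 8.06% and 11.1%, and the Klf motif GGGTGTGG in 3.69%, 3.18% and 3.71%. The octamer ATGCAAAT was in 1.26%, 1.30% and 1.63%. The Esrrb motif TCAAGGTCA and the Foxh1 motif AATCCACA were in under 1% of windows in each of these sets.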

How the data were processed

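Single cells had been profiled by the Smart-seq2 arm of G&T-seq. The deposited table holds raw counts of reads per gene and cell, which the authors made from trimmed reads aligned to GRCm38 and counted over genes in SeqMonk from primary alignments of mapping quality at least 20, keeping cells with at least 4000 genes and at most 10% mitochondrial reads. The authors also left out trophoblast cells by more than 1 count of each of Elf5, Wnt7b and Tex19.1, and 4 cells of the deposited table still had such counts. The submitters' processing notes name Trim Galore 0.4.3 and HISAT2 2.0.5. Strand-specific counting is not stated, so overlapping genes on either strand cannot be told apart. Without molecular identifiers, fold limits cover counting error only. The binomial intervals pool cells over embryos and leave out the spread between embryos.

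Counts were summed over the chosen cells of each embryo with at least 3 such cells. The labels do not name litters, whereas the study's text equates its batches with litters, so embryos of a plate may be littermates and p-values measure the spread between these embryos. edgeR 4.0.16 (TMM factors, filterByExpr, quasi-likelihood F test, R 4.3.3) compared 8 E5.5 with 5 E4.5 embryos, with Benjamini-Hochberg adjustment over the 12186 genes tested. The 16 selection genes with a row (Slc7a3 had none) were then left out of all counts and are described without a test, since their values chose the cells, by different genes at each stage. Levels in CPM use the TMM-scaled totals. For a gene without a count in a stage, the fold is a bound against 3 counts over that stage's sums. Alternatives used DESeq2 1.42.0, limma 3.58.1, RLE factors, other filters, thinned sums, single wells, single plates, a replicate block and fits without each embryo. Tables were made with Python 3.11.15, numpy 2.4.6, pandas 2.3.3 and scipy 1.17.1. Genes of the sex chromosomes and the mitochondrial genome were not analysed here.

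The cells and gene lists were chosen with earlier results of these data known. Genes named by rule are the markers Nodal, Pou3f1, Klf5 and Esrrb, the naive, formative and Nodal lists, up to 4 called genes of smallest adjusted p in each other list, and the 10 largest rises and drops among called genes without overlap and with at least 20 CPM in the higher stage. Other genes were named after their values were seen.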

Additional observations from a re-analysis of the deposited data

Results flagged for a closer look

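In the genes reported, 362 sets of embryos (1 gene at 1 stage) were tested for a single embryo lying far from all the others, and 55 had one, 24 at E4.5 and 31 at E5.5. A rate of 1 in 20 such sets would give 18.1, but whether that rate holds for these levels was not tested. All flags but those of Jarid2 and Cldn6 at E4.5 were on the high side. Levels near 0 in all but 1 embryo meet the criterion readily, so the number of flags is not set against chance. The values below are the lone embryo's level in CPM, and what sets them apart was not tested.

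E4.5 embryo 1 lay above the others of its stage for Mael (2.3 CPM) and Plagl1 (35.3 CPM). E4.5 embryo 1 lay below the others of its stage for Jarid2 (254 CPM). E4.5 embryo 2 lay above the others of its stage for Bmp8a (74.7 CPM), Lefty1 (42.3 CPM), Ngfr (77 CPM), Nodal (44.7 CPM), Psmb9 (28.2 CPM) and Spred2 (42.9 CPM). E4.5 embryo 3 lay above the others of its stage for Btg2 (5.46 CPM), Gstm5 (0.341 CPM), Nr5a2 (33.1 CPM), Pgm2 (0.682 CPM) and Prdm14 (2.73 CPM). E4.5 embryo 3 lay below the others of its stage for Cldn6 (21.5 CPM). E4.5 embryo 4 lay above the others of its stage for Dnmt1 (196 CPM), Gm8127 (68.1 CPM), Spic (20.9 CPM) and Tmem98 (0.18 CPM). E4.5 embryo 5 lay above the others of its stage for Grb10 (26.3 CPM), Ier2 (988 CPM), Pfkp (459 CPM), Sema6a (0.884 CPM) and Slc38a1 (4.86 CPM).

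E5.5 embryo 1 lay above the others of its stage for Cdx2 (4.42 CPM), Esrrb (6.37 CPM), Gata4 (4.18 CPM), H19 (37.5 CPM), Hand1 (1.24 CPM) and Tead4 (2.89 CPM). E5.5 embryo 2 lay above the others of its stage for Il6st (21.2 CPM), Notum (0.689 CPM), Prdm14 (0.053 CPM) and Tcl1 (2.39 CPM). E5.5 embryo 3 lay above the others of its stage for 2410004A20Rik (22.6 CPM), Atf3 (13.3 CPM), Ccne1 (424 CPM), Cdh2 (17.4 CPM), Dnmt3l (207 CPM), Lefty1 (240 CPM), Mael (23.3 CPM), Nr5a2 (2.58 CPM) and Pdgfra (0.078 CPM). E5.5 embryo 4 lay above the others of its stage for Bmp4 (19.7 CPM), Dcn (36.7 CPM), Eno1 (3350 CPM), Hmga1 (668 CPM), Mapk3 (145 CPM), Pkm (4100 CPM) and Utf1 (668 CPM). E5.5 embryo 6 lay above the others of its stage for Gata6 (2.08 CPM). E5.5 embryo 7 lay above the others of its stage for Ngfr (0.714 CPM). E5.5 embryo 8 lay above the others of its stage for Fbxo15 (4.86 CPM) and Jam2 (0.76 CPM). E5.5 embryo 9 lay above the others of its stage for Spry2 (80.6 CPM).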

How the results depend on the processing

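The main counts were 1336 genes higher and 753 lower at E5.5. They became 741 and 330 when edgeR's glmTreat tested against the fold limit itself, 227 and 251 with the first 5 cells of each E5.5 embryo, and 715 higher with sums thinned to the smallest total. Embryo means with limma gave 1346 lower. With E5.5 embryos of 1 plate only, the counts were 39 and 158 (P2.P3), 272 and 312 (P7.P4.P5), 36 and 134 (P11.P6.P10) and 14 and 72 (P1), each from fewer embryos. The single P1 embryo was assumed to vary like the others. Leaving out 1 embryo at a time gave 1064 to 1530 higher and 671 to 787 lower.

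With the embryo number as a replicate block the counts were 302 and 237. The numbers are not shared between stages by litter or day in the labels, and the deviations of same-numbered embryos correlated at -0.010, 0.0036, -0.032 and -0.025, so the numbers do not pair the embryos.

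Of 154 genes, those named by rule and 8 added after the values were seen, 153 kept their direction and side of the threshold with RLE factors (Btg2 did not), 153 with DESeq2, 150 without a filter on low counts, 143 with limma, 139 with at least 1 cell per sum, 116 with glmTreat and 110 with the replicate block. With single wells only 135 did and 16 lost their call, Nodal among them. With thinned sums 141 of 142 did, and with the first 5 cells 98 of 142. Against the E4.5 embryos of plate P1 125 did and of P2 140, and with the E5.5 embryos of 1 plate 50 to 107 did. At least 4 cells per sum and a class margin of at least 1 left the sums as they were, since each sum had at least 4 cells and the smallest margin was 2.10, and so tested nothing. Without 1 embryo at a time 140 to 150 of the 154 did. Of 110 called genes reported and with counts in both stages, 37 changed their fold by over 1.5 times in at least 1 such fit. The direction turned for Pecam1 (log2 fold change 0.83) and Hspa1b (1.19) against the E4.5 embryos of plate P1 and for Hspa1b with the replicate block (0.0046), and the cause was not tested. The small E4.5 sums limit what can be said of genes without a count there, since 3 counts over these sums correspond to 0.173 CPM.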

Other observations

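The 6 gene lists described here were drawn up after the data had been seen and are given by their counts alone, beside 11% of all genes higher and 6.19% lower. Of 28 tested imprinted genes, 8 were higher and 2 lower at E5.5, with a median log2 fold change of 0.73. Ndn, H19 and Magel2 had no count at E4.5 and stood at means of 35.0, 9.94 and 3.76 CPM at E5.5, while Gnas rose from 64.9 to 157 CPM and the adaptor Grb10 from 7.59 to 44.0 CPM. H19 stood at 37.5 CPM in E5.5 embryo 1 and at 2.88 to 8.51 CPM in the other E5.5 embryos. The amino acid transporter Slc38a4 fell from 81.5 to 16.7 CPM and the zinc finger gene Plagl1 from 8.57 to 0.423 CPM, the latter at 0 to 35.3 CPM in the E4.5 embryos.

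In the Notch pathway 6 of 15 tested genes were higher and 2 lower, the latter count being 1 in 8 of the 13 fits that left out an embryo. The receptors Notch2 and Notch3 rose from 8.09 to 33.2 and from 1.49 to 23.4 CPM and the target Hes1 from 7.12 to 34.3 CPM, whereas Rbpj, the nuclear effector of the receptors, stood at 142 to 200 CPM at E4.5 and at 18.4 to 37.1 CPM at E5.5 (log2 fold change -2.75, SE 0.20, adjusted p = 9.41e-08). Of 21 amino acid transporters, 1 was higher and 4 were lower. Slc38a1, a glutamine transporter, stood at 0 to 4.86 CPM and then at 55.6 to 130 CPM (log2 fold change 6.39, SE 0.80, with no count left at E4.5 without embryo 5), while the cationic amino acid transporter Slc7a1 fell from 98.3 to 13.7 CPM and the taurine transporter Slc6a6 from 122 to 40.4 CPM. Of 22 genes of threonine, glycine and one-carbon metabolism, Phgdh, which opens serine synthesis, was higher (93.4 to 448 CPM, log2 fold change 2.26, and 2.85 without E4.5 embryo 5), and 1 gene was lower, Tdh. The Hippo list had 2 higher and 3 lower of 18, with 2 higher in only 1 of the 13 fits that left out an embryo. The chromatin remodeller and histone enzyme list had 0 higher with edgeR or DESeq2, 4 higher at an unadjusted p under 0.05, and 2 lower of 24.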
